A study of Homo sapiens with 4 samples.

Results

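The S100 proteins are small calcium-binding proteins, and 10 of their genes were followed on 4 expression arrays of AGS cells, an established line from a human gastric adenocarcinoma. The genes were S100P, S100A2, S100A4, S100A6, S100A9, S100A10, S100A11, S100A13, S100A14 and S100A16, chosen by symbol among 19775 genes measured, and the brightest probe set by its mean over the 4 arrays stood for each gene. Of the family 20 genes were measured, and the other 10 were S100A1, S100A3, S100A5, S100A7, S100A7A, S100A8, S100A12, S100B, S100G and S100Z. The control group had wild-type PRMT6 (n = 2 arrays) and the PRMT6-KO group carried a knockout of PRMT6 (n = 2 arrays), an enzyme that places asymmetric dimethyl marks on arginine. The knockout was made with 1 guide RNA in the lentiCRISPR v2 lentiviral vector, puromycin selection and limiting dilution into clones. Which clone each knockout array came from, and whether control cells carried a vector, is not in the labels. Nothing says that arrays of a group came from separate cultures, so p-values measure only the spread between these arrays.

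S100 proteins fold into paired EF hands, loops that close around calcium, and mostly work as pairs of chains that expose a binding face once calcium is bound. Inside cells they bind annexins, cytoskeletal proteins and regulators. Some also leave the cell and signal through receptors such as AGER, better known as RAGE, and TLR4. In gut epithelium several of them are abundant, whereas S100A8, S100A9 and S100A12 are best known from neutrophils and monocytes. Most of the family lies in a cluster on the long arm of chromosome 1, interleaved with genes of the epidermal cornified envelope, and S100P lies apart on chromosome 4.

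In the knockout cells the family went in both directions. S100P fell 15.5-fold and S100A2 and S100A14 fell by less than 2-fold, while S100A4 rose 3.50-fold and S100A10, S100A13 and S100A16 rose by less than 2-fold. S100A6, S100A9 and S100A11 did not pass the test. In all, 4 of the 10 rose and 3 fell, taking an adjusted p under 0.05 as the threshold (limma, Benjamini-Hochberg over all genes), where 24.0% of all genes passed, 12.4% of all genes by rising and 11.5% by falling. Bright probe sets passed more often. Of genes above the median level 40.9% passed, against 7.02% of the others, and 9 of the 10 genes lay above it. For 9 of the 10, S100A11 being the exception, the values of both groups were fully apart, which was so for 58.2% of all genes. The 10 genes were picked with earlier results of this comparison known, so these counts and p-values describe the 4 arrays and support nothing further. Over the 20 family genes, chosen by name, 7 passed; their median change was -0.0046 on the log2 scale, and that of all genes was -0.0060.

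**Figure D1:**
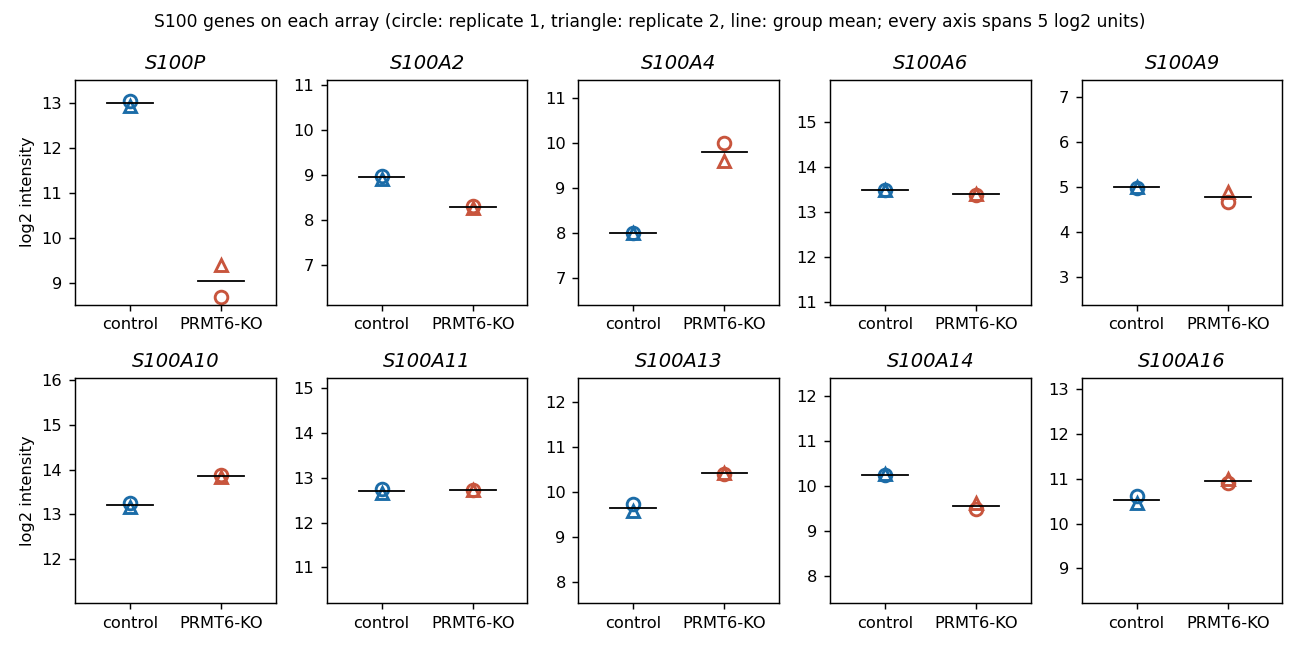
Log2 intensity (vertical axes, each spanning 5 log2 units) of the 10 S100 genes on the 2 control arrays (blue) and the 2 PRMT6-KO arrays (red), with replicate 1 as a circle, replicate 2 as a triangle and the group mean as a line. S100P is the gene with the widest gap between groups, and its knockout arrays at 8.70 and 9.41 also lie furthest apart.

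Sequence ahead of the start sites is shown for S100P and S100A4, the members with the largest fall and rise, for S100A10, a rising member with a GC-rich start, and for S100A2, a falling member that holds the AP-1 motif. The stretches are the 250 bases before the start site, from RefSeq, read 5′ to 3′ in the direction of transcription, and capitals mark matches to the motifs searched.
S100P (GRCh38.p14, chr4:6693628-6693877, plus strand): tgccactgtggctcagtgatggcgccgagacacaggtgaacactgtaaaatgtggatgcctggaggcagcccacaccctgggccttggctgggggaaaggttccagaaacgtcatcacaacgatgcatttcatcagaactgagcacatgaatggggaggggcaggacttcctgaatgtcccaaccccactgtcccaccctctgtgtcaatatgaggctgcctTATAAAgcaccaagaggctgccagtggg
S100A4 (GRCh38.p14, chr1:153545807-153546056, minus strand): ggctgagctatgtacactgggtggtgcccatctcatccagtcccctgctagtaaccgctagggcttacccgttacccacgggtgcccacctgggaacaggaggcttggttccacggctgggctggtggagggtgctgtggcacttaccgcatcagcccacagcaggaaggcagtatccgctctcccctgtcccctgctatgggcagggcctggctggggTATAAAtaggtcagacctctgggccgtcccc
S100A10 (GRCh38.p14, chr1:151993860-151994109, minus strand): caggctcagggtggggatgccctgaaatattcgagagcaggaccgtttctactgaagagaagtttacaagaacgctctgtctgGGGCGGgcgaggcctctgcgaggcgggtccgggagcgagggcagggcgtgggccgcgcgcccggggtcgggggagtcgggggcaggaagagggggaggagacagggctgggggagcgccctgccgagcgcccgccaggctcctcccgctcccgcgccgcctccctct
S100A2 (GRCh38.p14, chr1:153565845-153566094, minus strand): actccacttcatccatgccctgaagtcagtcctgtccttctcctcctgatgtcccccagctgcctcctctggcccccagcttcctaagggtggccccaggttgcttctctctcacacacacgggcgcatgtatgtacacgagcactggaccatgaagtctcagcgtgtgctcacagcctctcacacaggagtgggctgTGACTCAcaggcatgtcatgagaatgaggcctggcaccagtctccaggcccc
Both strands were searched for TATAAA (the TATA box), GGGCGG (the GC box), TGANTCA (AP-1), TGACGTCA (the cyclic AMP response element), TGATGCAA (a C/EBP-ATF element), GAANNTTC (a heat shock element) and CACGTG (the E-box), counting overlapping matches. All 10 genes had an entry, with 14 start windows between them. A TATAAA ended 22 bases before the start of S100P and 25 bases before that of S100A4, and S100A9 and 1 window of S100A13 held one too. It was present in 4 of the 14 windows and in 10.7% of 35097 windows of all genes. GGGCGG was found in 6 of the 14, in S100A6, S100A9, S100A10, S100A11, S100A13 and S100A16, and in 42.6% of all windows. The window of S100A10 was 71.2% G or C and that of S100P 55.6%, against a median of 58.0% over all windows. TGANTCA was found in 1 of the 14 windows, 45 bases before a start of S100A2, and in 6.57% of all windows. No S100 member window held the remaining 4 motifs, which were present in 1.65% (TGACGTCA), 0.772% (TGATGCAA), 5.78% (GAANNTTC) and 6.34% (CACGTG) of all windows. These matches describe letters in the reference and no binding was measured.

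S100P, first found in placenta and known as a secreted ligand of RAGE and an activator of the membrane linker ezrin, gave the largest difference in the family. Its log2 intensity was 13.06 and 12.95 on the control arrays and 8.70 and 9.41 on the knockout arrays. Both knockout arrays were far below both controls, and they differed from each other by 0.71, more than the 0.12 between controls. The mean went from 13.004 ± 0.082 to 9.05 ± 0.50 (SD, n = 2 each). This log2 change of -3.95 had an SE of 0.23, a 95% confidence interval of -4.54 to -3.36 and an adjusted p of 0.00084 (limma). In these bulk samples fewer cells with a transcript and less of it per cell cannot be told apart. Among 19775 genes this was number 10 by size of fall. S100P was read by 1 probe set, so no second probe set checked it. The change lay between -4.31 and -3.60 with any 1 array left out, and it passed the test each time (highest adjusted p 0.026). At 9.05 the mean in knockout cells still lay above the 2.37 to 5.83 spanned by 11 genes of eye, islet, heart and olfactory cells, a guide to dim probe sets only, since probe sets differ in affinity.

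S100A2, an epithelial member studied as a binding partner of p53, read 8.99 and 8.92 in control cells and 8.32 and 8.28 in knockout cells. Arrays of a group lay within 0.07 of each other and the groups did not overlap. The fall was 0.65 on the log2 scale (SE 0.08, 1.57-fold, adjusted p = 0.0048, limma). S100A14, another epithelial member, stood at 10.24 and 10.27 in control cells and at 9.49 and 9.62 in knockout cells. It fell by 0.70 (SE 0.09, 1.63-fold, adjusted p = 0.0050, limma), again without overlap. Both falls lost their call with either knockout array left out, when the remaining one is assumed to vary like the controls: adjusted p-values were then 0.066 and 0.075 for S100A2 and 0.068 and 0.059 for S100A14 (limma), at changes of -0.68 and -0.63 for S100A2 and -0.64 and -0.77 for S100A14. Squamous epithelium also expresses these 2 genes. In either direction 24.0% of all genes passed, 40.9% of those above the median level and 7.02% of the others. Of 9 measured squamous markers, SPRR3 (0.55) and KRT13 (0.48) rose, LORICRIN (-0.29) fell and 6 did not pass, all 3 calls being lost with some single array left out, and their mean level was 4.95 to 5.09 on control arrays and 5.07 to 5.11 on knockout arrays. AGS is an established cell line, and any link between these markers and the S100A2 and S100A14 values was not tested.

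S100A4, which binds the heavy chain of non-muscle myosin and is widely used as a fibroblast and mesenchymal marker, had the largest rise. Control arrays read 7.995 and 8.006 and knockout arrays 10.01 and 9.61. The controls nearly coincided and the knockout arrays were 0.40 apart, with no overlap. The log2 change of 1.81 had an SE of 0.14 and a 95% confidence interval of 1.44 to 2.17. It had an adjusted p of 0.0018 (limma) and was number 67 of 19775 genes by size of rise. It ran from 1.61 to 2.01 with single arrays left out and passed each time (highest adjusted p 0.033). S100A4 was read by 1 probe set, whose identifier carries the platform's suffix for probe sets that can match several transcripts, so no gene-specific probe set checked it. Of 10 fibroblast markers, COL1A1 (1.56), LUM (1.37), COL3A1 (1.02) and FAP (0.36) rose, PDGFRA (-0.86) fell and 5 did not pass. DCN (0.12) and COL1A2 (-0.32) were among those that did not pass. Of all genes 12.4% rose and 11.5% fell. Above the median level 40.9% of genes passed in either direction, and 7.02% of the others. The mean level of the 10 was 4.89 to 5.03 on control arrays and 5.22 to 5.30 on knockout arrays, and 8 of the 10 lay at or below 5.83, the highest of the genes of unrelated tissues. LUM (0.07) and COL3A1 (0.18) did not pass with their gene-specific probe sets. With the mean of probe sets COL1A1 still rose, by 0.72, and PDGFRA gave -0.20 and did not pass. FAP passed in no fit on 3 arrays and gave 0.06 under reference gene scaling, and LUM, COL3A1 and PDGFRA lost their calls with some single array left out. AGS is an established cell line, and any link between these markers and the S100A4 rise was not tested.

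S100A10, also called p11, does not bind calcium and forms a stable complex with annexin A2 that places plasminogen at the cell surface. Its main probe set gave 13.25 and 13.16 in control cells and 13.88 and 13.84 in knockout cells. The rise was 0.65 (SE 0.08, 1.57-fold, adjusted p = 0.0052, limma) with no overlap. Its second probe set rose by 0.93 (SE 0.09) from 8.82 and 8.74 to 9.77 and 9.66, with an adjusted p of 0.0040 in the limma fit over 41091 probe sets, where 18.4% passed. The main probe set no longer passed without knockout array 1 (adjusted p = 0.074, limma) or without knockout array 2 (0.073).

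S100A13, which takes part in the release of FGF1 and interleukin 1 alpha without a signal peptide, read 9.72 and 9.57 in control cells and 10.39 and 10.42 in knockout cells. It rose by 0.76 (SE 0.09, 1.69-fold, adjusted p = 0.0043, limma), and the knockout arrays lay 0.03 apart. Its dimmer second probe set gave 0.37 (SE 0.17) with an adjusted p of 0.23 in the probe set fit, and did not overlap between groups. S100A16, a widely expressed member with a weak first calcium loop, read 10.60 and 10.46 in control cells against 10.89 and 10.98. It rose by 0.41 (SE 0.09, 1.33-fold, adjusted p = 0.029, limma). S100A13 no longer passed without knockout array 1 (adjusted p = 0.067, limma) or 2 (0.075). S100A16 passed in none of the fits on 3 arrays (adjusted p 0.059 to 0.19, limma), nor with the replicate number as a block (0.057), and had the highest adjusted p of the 7.

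S100A6, or calcyclin, an abundant member that binds the ubiquitin ligase adaptor CACYBP, read 13.49 and 13.47 in control cells and 13.37 and 13.39 in knockout cells. The difference of -0.10 (SE 0.07, 95% confidence interval -0.29 to 0.09) did not pass (adjusted p = 0.43, limma), although the arrays did not overlap. Its second, dimmer probe set gave 0.41 (SE 0.15, adjusted p = 0.14 in the probe set fit), so the probe sets differ in sign and neither passed. S100A11, a partner of annexin A1, read 12.75 and 12.66 against 12.72 and 12.72, a difference of 0.01 (95% confidence interval -0.19 to 0.22, adjusted p = 0.93, limma). At intensities near 13, close to the highest deposited value of 14.16, probe sets can saturate and differences can be understated. The same limit bears on S100A10 (13.16 to 13.88) and on the S100P control arrays (13.06 and 12.95). Saturation was not measured. S100A9, the calprotectin subunit of neutrophils, read 4.99 and 4.99 in control cells and 4.67 and 4.89 in knockout cells (-0.21, SE 0.10, adjusted p = 0.22, limma). Its mean of 4.89 lay within the 2.37 to 5.83 of the genes of unrelated tissues, so whether it was above background is not known. S100A8, its usual partner, read 3.26 to 3.51 on the 4 arrays. In either direction 24.0% of all genes passed, 40.9% of those above the median level and 7.02% of the others. Of 9 measured myeloid markers 1 passed, CSF1R (-0.63), in no fit on 3 arrays; the list's mean was 5.04 to 5.18 on control and 4.87 to 5.04 on knockout arrays, LYZ, lysozyme, which gastric epithelium also makes, was bright at 12.77 and 12.88 against 12.36 and 11.30 and did not pass, and PTPRC (2.63 to 3.42) and MNDA (2.09 to 2.42) stayed dim on every array.

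**Figure D2:**
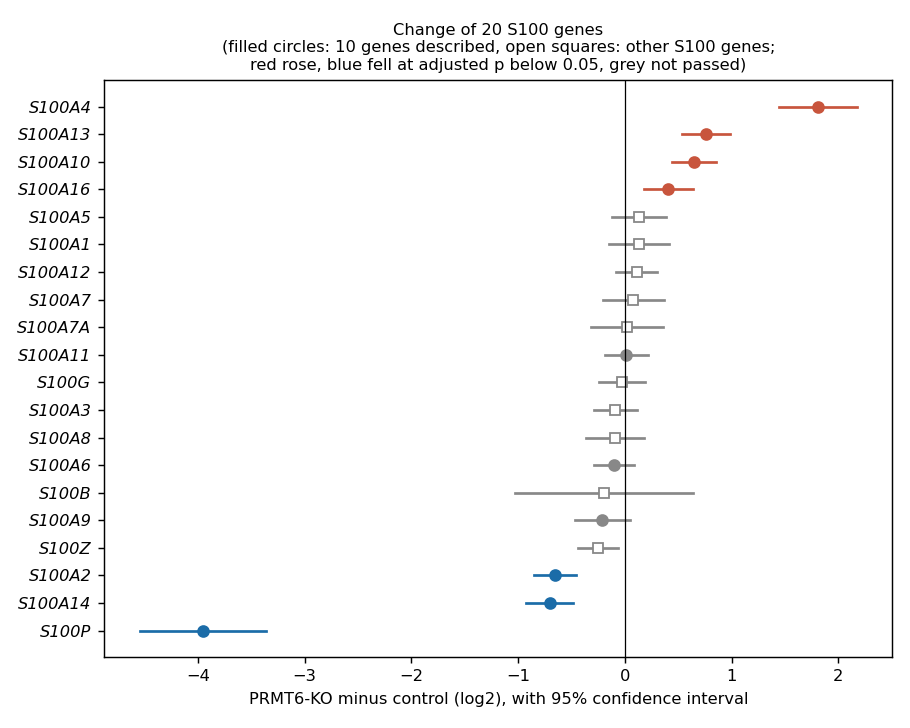
Change in PRMT6-KO cells against control (log2, horizontal axis) with its 95% confidence interval for 20 S100 genes, the 10 described (filled circles) and the other 10 (open squares). Genes that rose are red, those that fell blue and those that did not pass grey; S100P at -3.95 and S100A4 at 1.81 stand at the ends.

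None of the other 10 S100 genes passed the test in limma, and 1 of them, S100Z, had an unadjusted p below 0.05. S100Z, a member from spleen and leukocytes, read 2.93 and 2.92 in control cells and 2.66 and 2.70 in knockout cells (-0.25, adjusted p = 0.070). Changes of the rest ran from -0.19 for S100B, whose controls were 2.70 and 3.69, to 0.13 for S100A5 and S100A1. Their levels ran from 2.80 to 6.08, and 9 of the 10, all but S100A1, were at or below the 5.83 reached by genes of unrelated tissues. S100A7 and S100A7A are near-identical copies, so their signals may be shared. Above the median level of 5.97 lay 10 of the 20 family genes, and all 7 that passed were among these. Of the S100-fused-type proteins, which join an S100 start to a long repeat and build the cornified layer, FLG, FLG2, RPTN, TCHH and CRNN were measured. None of these 5 passed, with changes of 0.00 to 0.15 and levels of 2.46 to 4.88, and 0 of them had arrays without overlap. The groups did not overlap for 58.2% of all genes. In either direction 24.0% of all genes passed, 40.9% of those above the median level and 7.02% of the others. At such dim levels few genes pass, so these counts say little about the genes.

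Which of the 2 knockout arrays lay further from control varied among the 10 genes. For 6 of the 10 genes knockout array 1 lay further from the control mean, including S100P, S100A4, S100A14 and S100A10, and for 4 it was knockout array 2. The gap between knockout arrays was above 0.20 for S100P (0.71), S100A4 (0.40) and S100A9 (0.23), where the median gene had a gap of 0.09 between knockout arrays and 0.11 between controls. Pearson's r across genes was 0.997 between controls, 0.998 between knockout arrays and 0.983 to 0.984 between groups. PRMT6 itself read 8.03 and 8.11 in control and 7.79 and 7.63 in knockout cells, a fall of 0.36 (SE 0.09, adjusted p = 0.043, limma) that did not pass with any 1 array left out; transcript level does not test a Cas9 edit. Of the epithelial markers, EPCAM (12.54 in control, 12.46 in knockout cells), KRT18 (13.27 and 13.23), KRT8 (12.01 and 12.50) and KRT19 (11.79 and 12.40) were bright, CDH1 read 7.27 and 7.20, and KRT7 at 5.69 and 5.84 was as dim as genes of unrelated tissues. In either direction 24.0% of all genes passed, and 40.9% of those above the median level. Of 9 epithelial markers ELF3 (1.05), KRT19 (0.61) and KRT8 (0.49) rose and CLDN7 (-0.65) and CLDN4 (-0.46) fell. All 5 calls were lost with some single array left out (highest adjusted p 0.057 for ELF3 to 0.18 for KRT8, limma), CLDN4 gave -0.23 and did not pass with the mean of its probe sets, and KRT8 gave 0.19 and did not pass under reference gene scaling.

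Directions also rest on the scaling. The deposited values force every array to nearly the same distribution. Setting arrays to equal means of 12 reference genes instead lowered every change by 0.30; of these reference genes 6 had themselves risen and 0 had fallen. Calls over all genes then moved from 2459 rises and 2281 falls to 1112 and 9495. S100P (-4.25), S100A2 (-0.95) and S100A14 (-1.004) remained lower and S100A4 (1.51), S100A13 (0.46) and S100A10 (0.35) remained higher past the test. S100A16 shrank to 0.11 and no longer passed (adjusted p = 0.31), while S100A6 (-0.40), S100A9 (-0.51) and S100A11 (-0.28, the opposite sign) passed as lower.

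**Figure D3:**
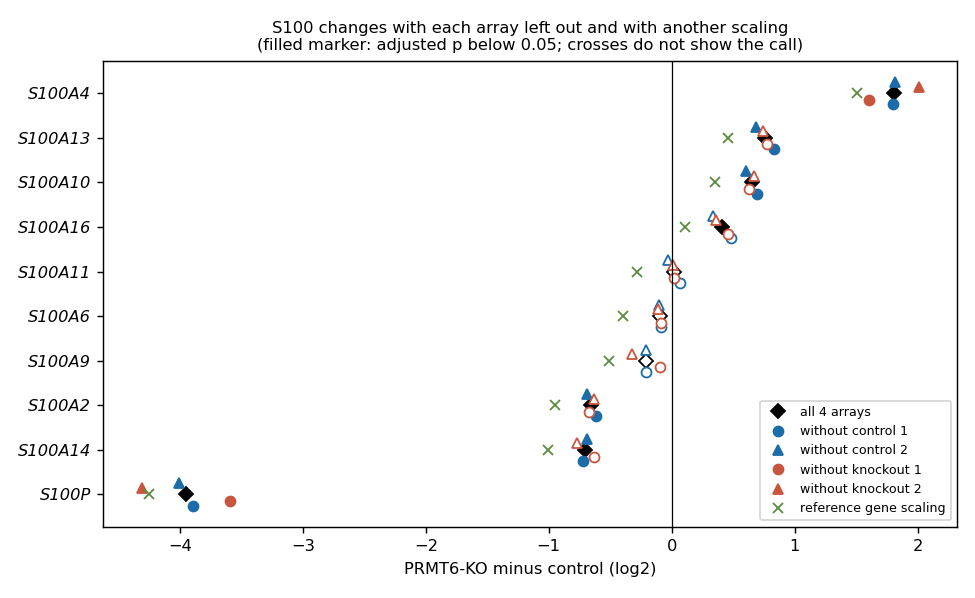
Change of each of the 10 S100 genes (log2, horizontal axis) with all 4 arrays (black), with each array left out (blue for a control, red for a knockout array) and under reference gene scaling (green crosses). Filled markers passed at an adjusted p below 0.05 (crosses do not show the call); S100P and S100A4 are filled throughout, whereas S100A2, S100A10, S100A13 and S100A14 are open when either knockout array is left out.

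Proteins known to bind S100 proteins were read from a list of 20, of which 19 were measured. Of these, 5 rose, 1 fell and 13 did not pass, where 24.0% of all genes and 40.9% of genes above the median level passed. The list median was 0.12 against -0.01 for all genes. ANXA1, the annexin bound by S100A11, read 7.56 and 7.60 in control cells and 11.27 and 11.31 in knockout cells, a rise of 3.71 (SE 0.08, 13.1-fold, adjusted p = 0.00012, limma). Its partner S100A11 differed by 0.01, as given above. ANXA2, the obligate partner of S100A10, read 13.27 and 13.20 against 13.34 and 13.40, and its difference of 0.14 (95% confidence interval -0.06 to 0.34) did not pass (adjusted p = 0.29, limma), while S100A10 rose by 0.65. It passed with a variance prior that follows intensity.

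The remaining called partners changed by less than ANXA1. CACYBP, the S100A6 partner, rose by 0.37 (adjusted p = 0.030, limma), whereas the probe set specific to it gave 0.13 and did not pass. PPP5C, a phosphatase, rose by 0.47. NCL, nucleolin, rose by 0.33 and ANXA6 by 0.39, and their gene-specific probe sets gave 0.07 and -0.13 and did not pass. The 4 calls were also lost when single arrays were left out (highest adjusted p 0.18 for CACYBP, 0.13 for PPP5C, 0.19 for NCL and 0.19 for ANXA6, limma). EZR, the S100P partner ezrin (-0.34, adjusted p = 0.059, limma), and MYH9, the myosin chain bound by S100A4 (-0.20), did not pass. Neither did IQGAP1, a scaffold bound by S100P (-0.25), or S100PBP, the S100P-binding protein (-0.33). Under reference gene scaling EZR (-0.64), IQGAP1 (-0.55) and MYH9 (-0.50) passed. EZR and IQGAP1 also passed among only genes above the median level and with a variance prior that follows intensity. With the mean of probe sets EZR (-0.42) passed and IQGAP1 (-0.07) did not. IL1A, whose release involves S100A13, fell by 1.75 on its brighter probe set, and its gene-specific probe set gave -0.02; both are dim.

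At the cell surface, ALCAM, an adhesion molecule reported to bind S100B, rose by 1.27 (SE 0.09, 2.42-fold, adjusted p = 0.0012, limma), from 10.36 and 10.42 to 11.73 and 11.59. TLR4 rose by 0.66 (SE 0.10, adjusted p = 0.0079, limma), from 7.23 and 7.38 to 7.90 and 8.02, and did not pass without either knockout array (adjusted p up to 0.097). Neither group overlapped the other for these 2 receptors, which was so for 5 of the 7 measured receptors and for 58.2% of all genes. AGER, or RAGE, was dim (5.34 and 5.63 against 5.11 and 5.24) and its difference of -0.31 did not pass. BSG, NPTN, CD36 and MCAM did not pass either, so 2 of 7 measured receptors rose and 0 fell. Of all genes 12.4% rose and 11.5% fell. Among 6 measured genes of plasminogen activation, where annexin A2 and S100A10 act, PLAUR, the urokinase receptor, fell by 1.24 (SE 0.09, adjusted p = 0.0013, limma), from 9.27 and 9.20 to 7.92 and 8.06. ENO1, a glycolytic enzyme that also binds plasminogen, rose by 0.60 (adjusted p = 0.0062, limma). PLAT, PLAU, PLG and PLGRKT did not pass. The PLAUR call was kept with any 1 array left out, and its gene-specific probe set gave a smaller fall of 0.49; ENO1 did not pass without either knockout array (adjusted p up to 0.085).

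**Figure D4:**
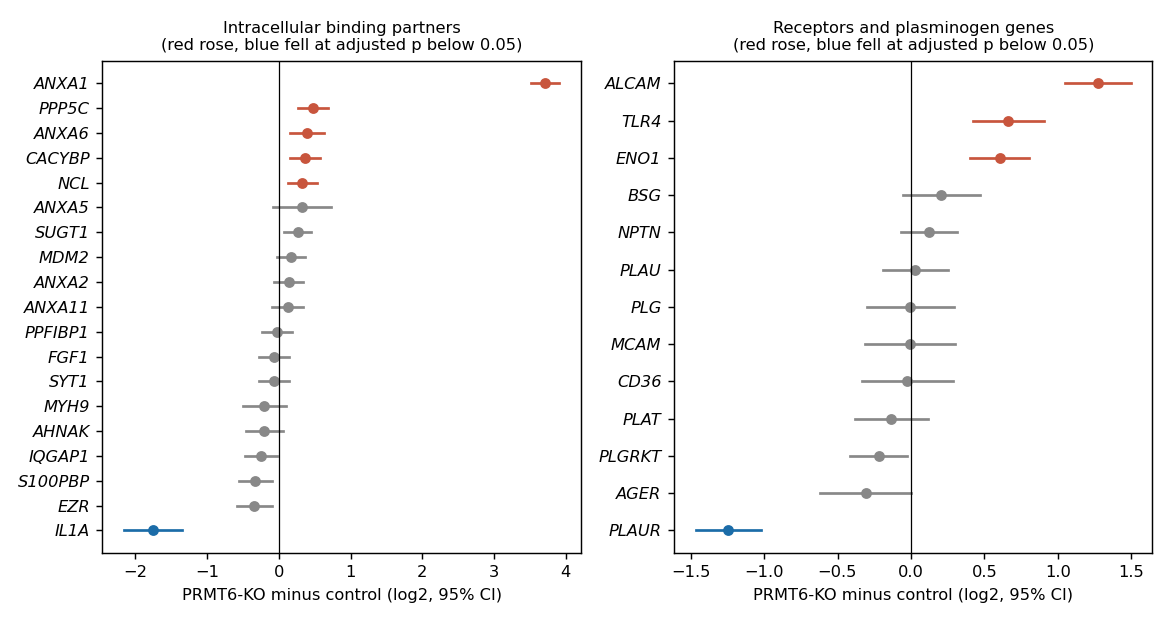
Change in PRMT6-KO cells (log2, horizontal axis) with its 95% confidence interval for 19 binding partners of S100 proteins (left) and for 7 receptors and 6 plasminogen genes (right). Red marks genes that rose and blue those that fell at an adjusted p below 0.05; ANXA1 at 3.71 lies apart from ANXA2 at 0.14.

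Both directions occurred side by side in the chromosome 1 cluster. In RefSeq order the measured S100 genes there run from S100A10 and S100A11, past the cornified envelope genes, to S100A9, S100A12, S100A8, S100A7A, S100A7, S100A6, S100A5, S100A4, S100A3, S100A2, S100A16, S100A14, S100A13 and S100A1. Of these 16 genes 4 rose and 2 fell, where 12.4% of all genes rose and 11.5% fell. S100A4, which rose by 1.81, has S100A5 (0.13) and S100A3 (-0.09) as neighbours, neither of which passed, and both are dim. S100A2 and S100A14, which fell, stand on either side of S100A16, which rose. Between the S100 genes lie 29 other measured genes, of which 23 are at or below the level reached by genes of unrelated tissues. Of the 29 genes 3 rose, 3 fell and 23 did not pass. In either direction 24.0% of all genes passed, 40.9% of those above the median level and 7.02% of the others. CCDST and PRR9, which changed most among the 29, lay above the median level, so the share for dim genes alone is no fair comparison. CCDST, a non-coding RNA, rose by 1.82 (SE 0.15, adjusted p = 0.0019, limma), from 6.80 and 6.38 to 8.40 and 8.41. PRR9, a proline-rich protein, rose by 1.63 (SE 0.21), from 5.67 and 5.87 to 7.09 and 7.69, and SPRR3 rose by 0.55.

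The genes that fell there were SPRR2B (-0.93), LELP1 (-0.32) and LORICRIN (-0.29). All 6 calls were lost with some single array left out (highest adjusted p 0.058 for CCDST and PRR9, 0.087 for SPRR3, 0.15 for SPRR2B, 0.19 for LELP1 and 0.22 for LORICRIN, limma). SPRR3 gave -0.013 as the mean of its probe sets, and CCDST gave a smaller rise of 1.01 that still passed. SPRR2B has near-identical copies that may share its probe set. Of the 10 measured genes before the cluster THEM4 (0.71), CGN (0.43) and MRPL9 (0.38) rose, and of the 10 after it CHTOP (0.44) and SNAPIN (0.35). On either side 0 fell, where 12.4% of all genes rose and 11.5% fell. Under reference gene scaling CGN (0.13), MRPL9 (0.08), CHTOP (0.14) and SNAPIN (0.05) did not pass, while THEM4 (0.41) did. On chromosome 4, S100P fell by 3.95. Of its 10 nearest measured genes, KIAA0232 fell by 0.67, MRFAP1L1 rose by 0.32 and 8 did not pass. In either direction 24.0% of all genes passed. The groups did not overlap for 9 of these 10 genes, and for 58.2% of all genes. The last 7 genes named outside the S100 family also lost their calls with some single array left out (highest adjusted p 0.067 for THEM4 to 0.20 for MRFAP1L1, limma).

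**Figure D5:**
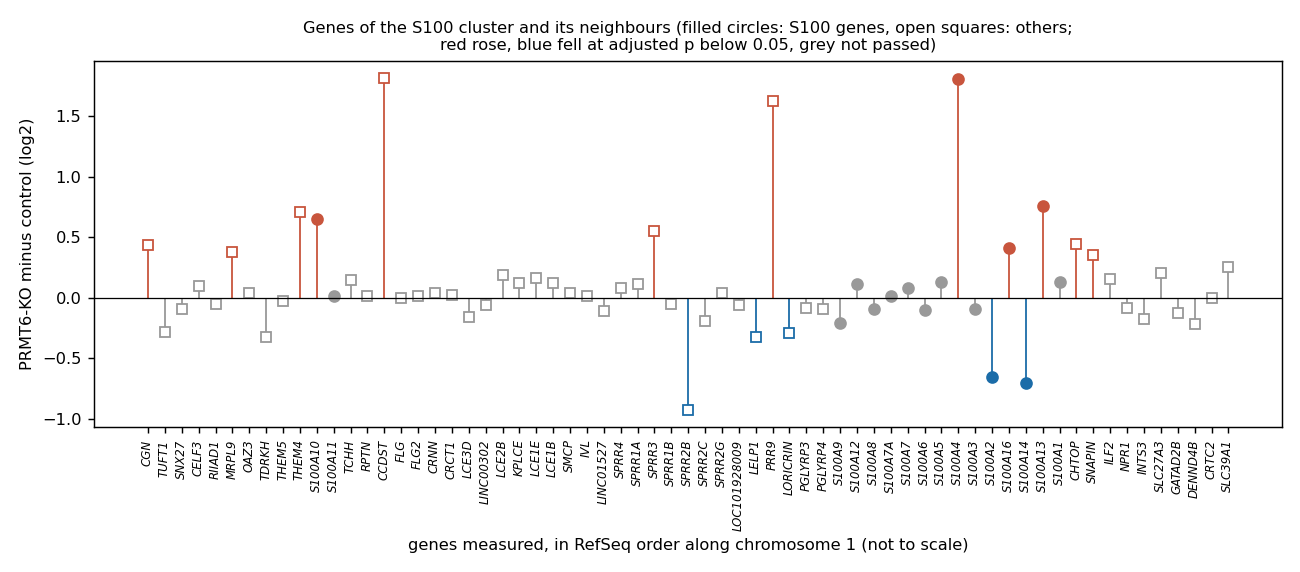
Change in PRMT6-KO cells (log2, vertical axis) of the S100 genes (filled circles) and the other measured genes (open squares) in their order along chromosome 1, with 10 genes on each side; distances are not to scale. Red marks rises and blue falls at an adjusted p below 0.05; risen and fallen S100 genes alternate at the right, and most genes between S100A11 and S100A9 are grey.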

How the data were processed

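RNA of 2 control and 2 PRMT6-KO samples was measured on 1-colour arrays. The authors deposited 1 table of log2 intensities for 54613 probe sets; per the submitters' processing notes RMA in the affy package made them (versions are not given in the sources used here), and the range of the values fits a log2 scale (1.64 to 14.16, array medians 5.01 to 5.02). RMA quantile-normalizes arrays, so changes are relative to other transcripts. Small differences of dim probe sets can also be compressed. Detection calls were not used here. Probe sets with 1 gene symbol (41091) were named from the platform annotation and updated through Entrez numbers to RefSeq GRCh38.p14 (41037 matched). The brightest probe set stood for each gene.

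The test was limma 3.58.1 under R 4.3.3 (lmFit, eBayes, no covariates; 2 residual and 3.27 prior degrees of freedom), with Benjamini-Hochberg adjustment over 19775 genes and a threshold of 0.05. With 2 arrays a group an exact permutation test of a single gene cannot go below p = 0.333 (two-sided), so none is given. The number of arrays limits the precision. The fit was tested on simulated data. The members and lists were chosen with earlier results of these data known. Named genes were the members, all other measured S100 genes, PRMT6, known partners, and in each list up to 4 genes past the test with the largest change, or any gene that a count of 5 or fewer covers. Alternatives were other probe set choices, only brighter genes, an intensity trend in the variance prior, reference gene scaling, the replicate number as a block and leaving out each array.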

Additional observations from a re-analysis of the deposited data

How the results depend on the processing

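The fall of S100P and the rise of S100A4 passed under all 10 alternatives. S100A2, S100A10, S100A13 and S100A14 passed under 8 of 10, failing without either knockout array. The gene-specific setting kept the main probe set of every member, including S100A4, which has no gene-specific one. The mean of probe sets changed values only for S100A6, S100A10 and S100A13, which have 2 probe sets. For the other members these 2 settings reread the same values and are no check. Over the 10 S100 genes 7 passed in the main setting, 7 with the mean of probe sets, gene-specific probe sets, brighter genes or an intensity trend, 9 under reference gene scaling, and 2 to 6 with an array left out (2 without either knockout array). Over the 20 family genes 13 passed under reference gene scaling and 2 to 6 with an array left out. Genes rising numbered 1112 and genes falling 9495 under that scaling, and 154 to 1371 and 354 to 1258 with an array left out. Among changes that passed in the main setting or under the alternative, the sign was opposite for S100A11 under reference gene scaling (-0.28), ANXA6 with its gene-specific probe set (-0.13) and SPRR3 with the mean of its probe sets (-0.013). Changes that passed in neither also switched sign: S100A6 with the mean of probe sets (0.15), S100A8 with its gene-specific probe set (0.09), S100A11 without control 2 (-0.03), and ANXA2 (-0.16), S100A1, S100A5, S100A7, S100A7A and S100A12 under reference gene scaling; S100A1, S100A7, S100A7A, S100A8, S100B and S100G did so with some array left out, and S100A7A with the mean of probe sets. The causes were not tested. By design, leaving out an array reduces the number of arrays, and reference gene scaling lowers every change by 0.30.

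The labels do not say that equal replicate numbers pair the arrays, and deviations of same-numbered arrays correlated at 0.052 across genes. With the replicate block 2035 genes rose and 1937 fell, 6 of the 10 S100 genes passed, and S100A16 was the one lost. Signal over background could not be assessed, which limits S100A9 and 9 of the other 10 S100 genes.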

Other observations

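EF-hand proteins outside the S100 family also went both ways in the knockout cells. Of 26 measured, 5 rose, 7 fell and 14 did not pass, with a median change of -0.05, where 24.0% of all genes and 40.9% of genes above the median level passed. NUCB2, nucleobindin 2, fell by 1.90 on the log2 scale (SE 0.12, 3.74-fold, adjusted p = 0.0010, limma), from 10.69 and 10.92 to 8.999 and 8.80. MCFD2, which helps export clotting factors from the endoplasmic reticulum, fell by 0.97 (SE 0.08), and CALU, calumenin, fell by 0.91 (SE 0.08). RCN1, reticulocalbin 1, fell by 0.37 and NUCB1 by 0.42, whereas RCN2 (-0.03), RCN3 (0.15) and SDF4 (-0.10) did not pass. HPCAL1 (-0.49) and CALB2 (-0.64) fell too. CALML4, a calmodulin-like protein of the gut brush border, rose by 0.77 (SE 0.09), and the centrosomal CETN2 rose by 0.69 (SE 0.09). CIB1 (0.50), EFHD2 (0.48) and PDCD6 (0.35) rose as well.

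NUCB2 passed with any 1 array left out (highest adjusted p 0.041, limma), whereas MCFD2, CALU, CALML4 and CETN2 did not pass without either knockout array (highest adjusted p 0.056, 0.054, 0.067 and 0.084). CIB1 and CALB2 passed only without control 2 among the fits on 3 arrays (adjusted p up to 0.10 in each), and CIB1 gave 0.20 and did not pass under reference gene scaling. RCN1, NUCB1, HPCAL1, EFHD2 and PDCD6 were not followed singly through the alternatives. Read by its gene-specific probe set, CALU gave -0.57 and did not pass (adjusted p = 0.052, limma). With the mean of probe sets CALML4 gave a smaller rise of 0.32 and MCFD2 a smaller change of -0.61, both still past the test. Under reference gene scaling, which lowers every change by 0.30, 2 of the 26 rose and 14 fell.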
